A study of Mus musculus with 4 samples.

Results

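Interferon-stimulated genes and the receptors, kinases, transcription factors and inhibitors of interferon signalling were followed in 4 cultured mouse melanoma lines. The members were 37 genes listed by name and matched through the current or an older symbol in the array annotation. A probe was found for 34 of the 37 genes, on 37 of the 33012 probes of the array. These 34 genes were set against the 15369 genes that the annotation names. Ifit3, Oas1a and Bst2 were not analysed here, and 2 probes that the annotation gives jointly to Oas1g and Oas1a were named for neither.

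Interferons are secreted proteins that warn cells of viruses and of foreign nucleic acid. Type I interferons bind the receptor chains Ifnar1 and Ifnar2 and activate the kinases Jak1 and Tyk2, while interferon gamma binds Ifngr1 and Ifngr2 and activates Jak1 and Jak2. Irf9 and Stat2 act in a complex that binds the interferon-stimulated response element (ISRE) in target promoters, and targets of interferon gamma often carry the gamma-activated site (GAS). The targets include blockers of viral RNA and protein, GTPases that attack vacuoles of intracellular microbes, and the inhibitors Socs1, Socs3 and Usp18 that end the signal. Melanoma cells can respond to interferon, which is known to slow their growth and to raise antigen presentation.

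All lines came from B16, a melanoma of C57BL6 mice. B16 was the parental line. B16-RI was recultured from lymph node metastases after B16 cells, called B16F1 in that step, had been injected into the skin of the back. B16-RII and B16-RIIL were recultured from lymph node and lung metastases, respectively, that formed after B16-RI had been injected in the same way. No treatment with interferon is described, and all lines were grown for up to 10 passages in the same medium with serum, antibiotic and antimycotic. The series text describes the RNA of each line as a pool of different passage numbers. The study describes duplicates of each line, hybridized to arrays on which every probe gives a chemiluminescence signal. The labels name 1 sample per line, and the values here come from the 1 array per line that matches it; columns of second arrays match no sample label and were not used here. With 1 array per line the differences below have no replicate check and no test, and precision is limited by the number of arrays; with the second arrays as replicates they could be tested.

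The signal given throughout is the normalized signal that the authors deposited, after the 2 sets of probes that were scaled by different constants were each centred on B16. It is called the centred signal, has arbitrary units, and can be compared between lines for a gene but not between genes. A gene was represented by its brightest probe. It was detected on an array when the signal-to-noise ratio (S/N) was at least 3 and the error flag at most 5000. Differences of at least 2-fold, which is 1 log2 unit, were called when the brighter array detected the gene, and the gene is then said to be above or below B16. Where the dimmer array did not detect the gene, the fold was taken against its undetected reading. A reading under the lowest detected signal of that array was set to that signal. Such a fold is called nominal, because the true fold can be smaller or larger.

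Promoter sequences are shown first for the members called above B16 and for typical interferon targets that were not called in any line. They span 250 bases before to 50 bases after the annotated start site and were taken from RefSeq on build GRCm38.p6. Capitals mark matches on either strand to the ISRE core, spelled GAAANNGAAA, or to the GAS motif, spelled TTCNNNGAA. Ifi47 and Igtp encode interferon-inducible GTPases, and Ifit2 encodes a protein that binds viral RNA.
Ifi47, chr11:49076337-49076636, plus strand: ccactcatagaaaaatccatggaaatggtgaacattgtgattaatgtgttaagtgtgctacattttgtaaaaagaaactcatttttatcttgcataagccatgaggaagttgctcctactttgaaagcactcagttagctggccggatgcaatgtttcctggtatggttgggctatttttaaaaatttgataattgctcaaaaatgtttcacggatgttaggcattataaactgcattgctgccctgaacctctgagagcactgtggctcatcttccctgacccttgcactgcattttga
Ifit2 promoter 1, chr19:34550444-34550743, plus strand: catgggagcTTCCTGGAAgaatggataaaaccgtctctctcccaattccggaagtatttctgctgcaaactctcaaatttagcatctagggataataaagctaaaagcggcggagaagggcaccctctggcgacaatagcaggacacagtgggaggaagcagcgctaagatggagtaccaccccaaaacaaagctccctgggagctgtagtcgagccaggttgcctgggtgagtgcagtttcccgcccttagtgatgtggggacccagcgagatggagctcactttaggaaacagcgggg
Ifit2 promoter 2, chr19:34550838-34551137, plus strand: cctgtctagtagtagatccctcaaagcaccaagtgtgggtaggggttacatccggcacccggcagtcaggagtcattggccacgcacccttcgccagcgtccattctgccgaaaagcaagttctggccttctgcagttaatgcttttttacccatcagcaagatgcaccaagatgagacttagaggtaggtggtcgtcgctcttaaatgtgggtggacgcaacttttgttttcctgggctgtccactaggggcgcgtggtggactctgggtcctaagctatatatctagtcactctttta
Igtp, chr11:58199306-58199605, plus strand: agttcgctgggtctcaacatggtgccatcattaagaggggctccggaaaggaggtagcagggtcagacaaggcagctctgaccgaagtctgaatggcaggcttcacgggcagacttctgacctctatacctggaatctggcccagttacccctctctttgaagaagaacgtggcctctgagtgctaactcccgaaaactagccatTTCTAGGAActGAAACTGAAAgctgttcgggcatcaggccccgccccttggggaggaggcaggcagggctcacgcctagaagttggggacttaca
Isg15 is a ubiquitin-like protein that is attached to other proteins, Ifit1 is an RNA-binding relative of Ifit2, and Rsad2 (viperin) makes a nucleotide that stops viral RNA synthesis. None of these 3 was called above or below B16 in any line.
Isg15, chr4:156200769-156201068, minus strand: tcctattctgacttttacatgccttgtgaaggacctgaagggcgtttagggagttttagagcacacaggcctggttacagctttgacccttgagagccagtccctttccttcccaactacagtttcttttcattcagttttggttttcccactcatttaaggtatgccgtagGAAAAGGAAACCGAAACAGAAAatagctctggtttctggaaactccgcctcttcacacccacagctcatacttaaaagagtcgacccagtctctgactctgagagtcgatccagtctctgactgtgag
Ifit1, chr19:34640639-34640938, plus strand: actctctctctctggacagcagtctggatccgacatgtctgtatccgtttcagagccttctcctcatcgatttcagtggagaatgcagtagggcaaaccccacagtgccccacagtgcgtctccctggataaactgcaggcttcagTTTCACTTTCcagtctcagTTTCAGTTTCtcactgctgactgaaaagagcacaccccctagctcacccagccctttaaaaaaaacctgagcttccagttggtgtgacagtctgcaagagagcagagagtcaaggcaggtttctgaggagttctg
Rsad2, chr12:26456403-26456702, minus strand: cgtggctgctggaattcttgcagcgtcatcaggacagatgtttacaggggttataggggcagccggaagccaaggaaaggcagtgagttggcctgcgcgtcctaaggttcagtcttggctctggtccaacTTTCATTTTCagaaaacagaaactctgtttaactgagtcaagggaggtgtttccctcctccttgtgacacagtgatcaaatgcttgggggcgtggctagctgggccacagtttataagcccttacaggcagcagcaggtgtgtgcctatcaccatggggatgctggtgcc
In Igtp the GAS match at -45 to -37 and the ISRE core match at -34 to -25 from the start site lie side by side. Isg15 holds 3 overlapping ISRE core matches between -78 and -57, Ifit1 holds 2 at -104 to -95 and at -85 to -76, and Rsad2 holds 1 at -120 to -111. The first Ifit2 promoter holds a GAS match at -241 to -233 and no ISRE core, and neither motif is in the second Ifit2 promoter or in the Ifi47 promoter. A missing match says only that these letters are not in this window.

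Promoters of 33 of the 37 listed genes were in the sequence table; those of Mx1, Mx2, Iigp1 and Usp18 were not used here. The ISRE core was found for 15 of the 33 genes (45.5%), against 3.99% of the 27025 genes with a promoter. The GAS motif was found for 13 of the 33 (39.4%), against 9.55% of all genes. The genes were listed as interferon genes, so these shares describe the list. Over all genes 47.5% were detected on every array, 33.6% on none, and 24.5% of those detected on at least 1 array were called in a passaged line; genes detected on no array could not be called. Of the 12 genes on the array with an ISRE core, 5 were detected on every array, 4 on none, and 2 (Ifih1 and Igtp) were called in a line. Of the 18 without it, 13 were detected on every array, 4 on none, and 3 (Irf9, Ifit2 and Ifi47) were called. The map of motif matches shows their places.

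**Figure D1:**
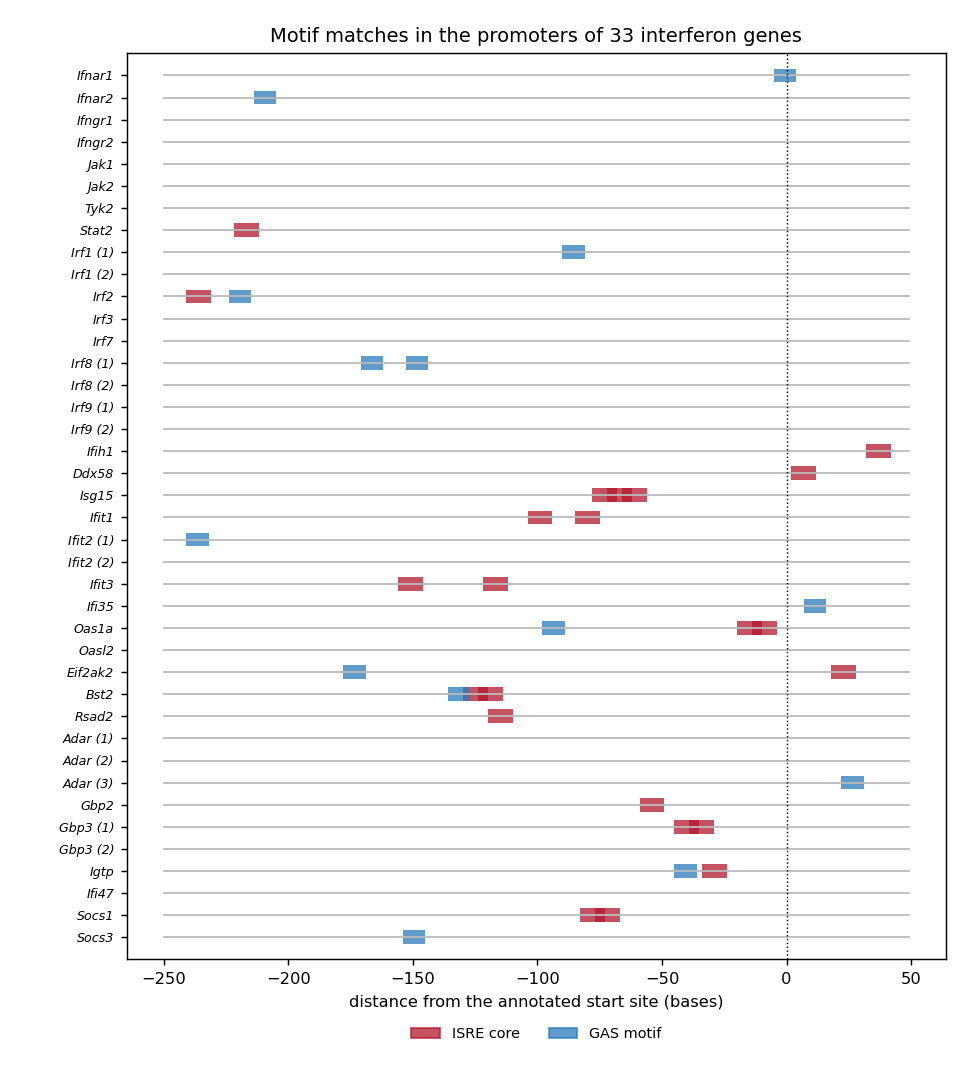
Matches to the ISRE core (red) and the GAS motif (blue), on either strand, in the promoters of the 33 listed genes with an entry, including Ifit3, Oas1a and Bst2, which have no probe here. The x axis is the distance in bases from the annotated start site (dotted line), numbers in brackets mark alternative promoters of a gene, and darker red marks overlapping matches; 15 genes hold an ISRE core and 13 a GAS motif.

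Most members were detected in these cells, for which no treatment with interferon is described. Of the 34 members, 21 were detected in B16 (54.9% of all genes), 22 in B16-RI (53.6%), 24 in B16-RII (56.4%) and 22 in B16-RIIL (56.6%). On every array 19 of the 34 were detected, against 47.5% of all genes. On no array were 8 detected, against 33.6% of all genes: Jak2, Stat2, Irf7, Irf8, Ddx58, Oasl2, Gbp2 and Gbp3. The other 7, detected on 1 to 3 arrays, were Ifih1, Ifit1, Mx2, Igtp, Iigp1, Ifi47 and Usp18.

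Few members differed 2-fold from the parental line. In B16-RI, Ifi47 was above B16 and Irf9 below it, among 23 members detected on at least 1 of both arrays. Over all genes 5.9% were above and 8.82% below in the same comparison. In B16-RII, Ifi47 and Ifit2 were above and no member was below, of 25, against 5.95% and 8.13% of all genes. In B16-RIIL, Ifi47, Ifit2 and Igtp were above and Ifih1 was below, of 24, against 7.2% and 7.1% of all genes. In total 5 of 26 members were called in at least 1 line, against 24.5% of all genes, so the member list held no larger share of called genes than the array as a whole. The plot of signals by array gives all 34 genes, and the plot of differences gives the 26 that were detected.

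**Figure D2:**
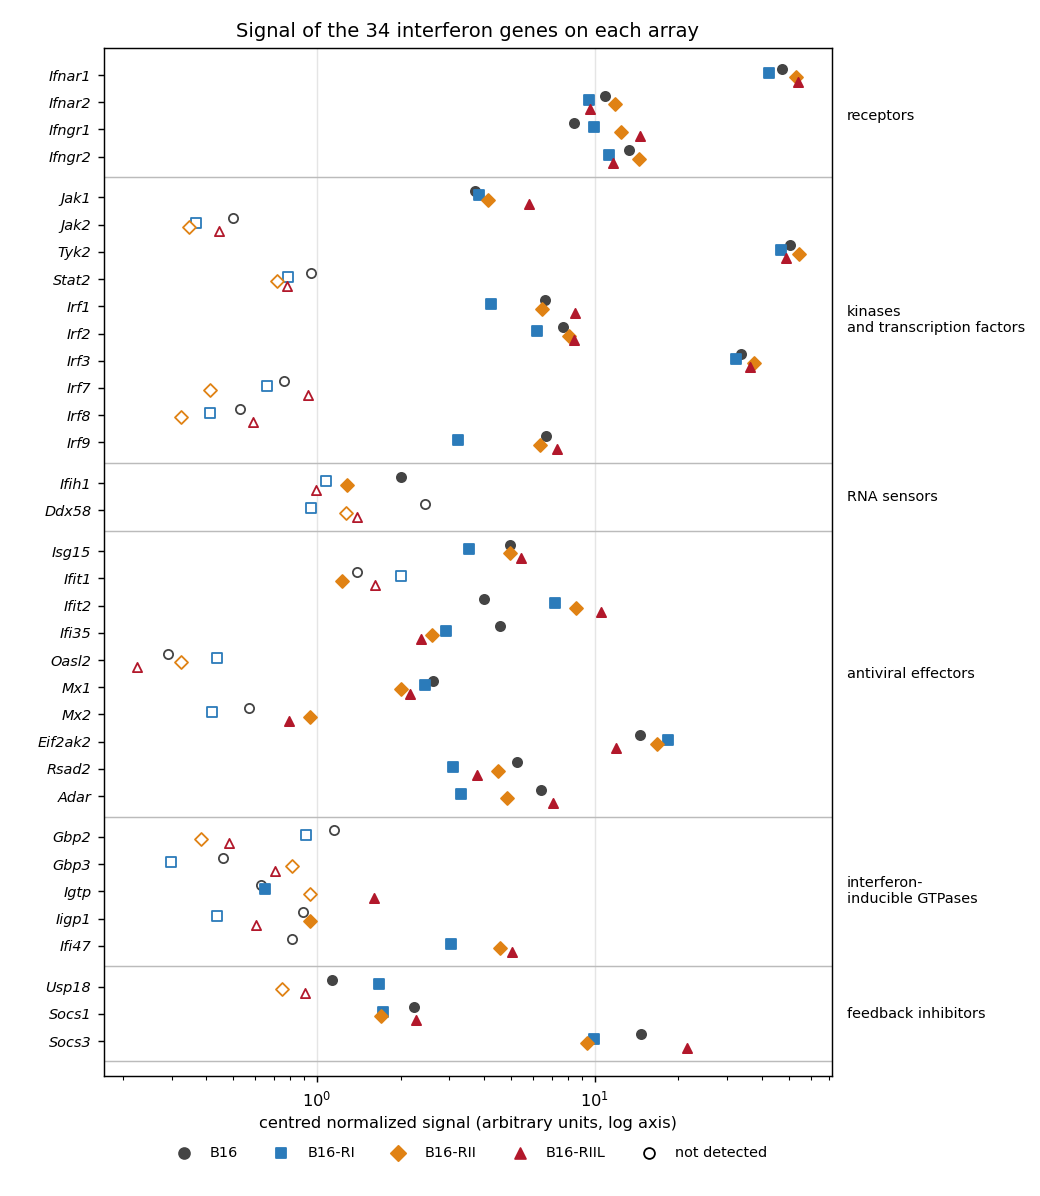
Centred signal (x axis, arbitrary units, log scale) of the 34 interferon genes on the 4 arrays, 1 point per line, with open symbols where the gene was not detected. Points compare lines within a gene and not genes with each other; Ifi47 goes from an open circle at 0.81 on B16 to 3.04, 4.57 and 5.04 on the passaged lines.

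**Figure D3:**
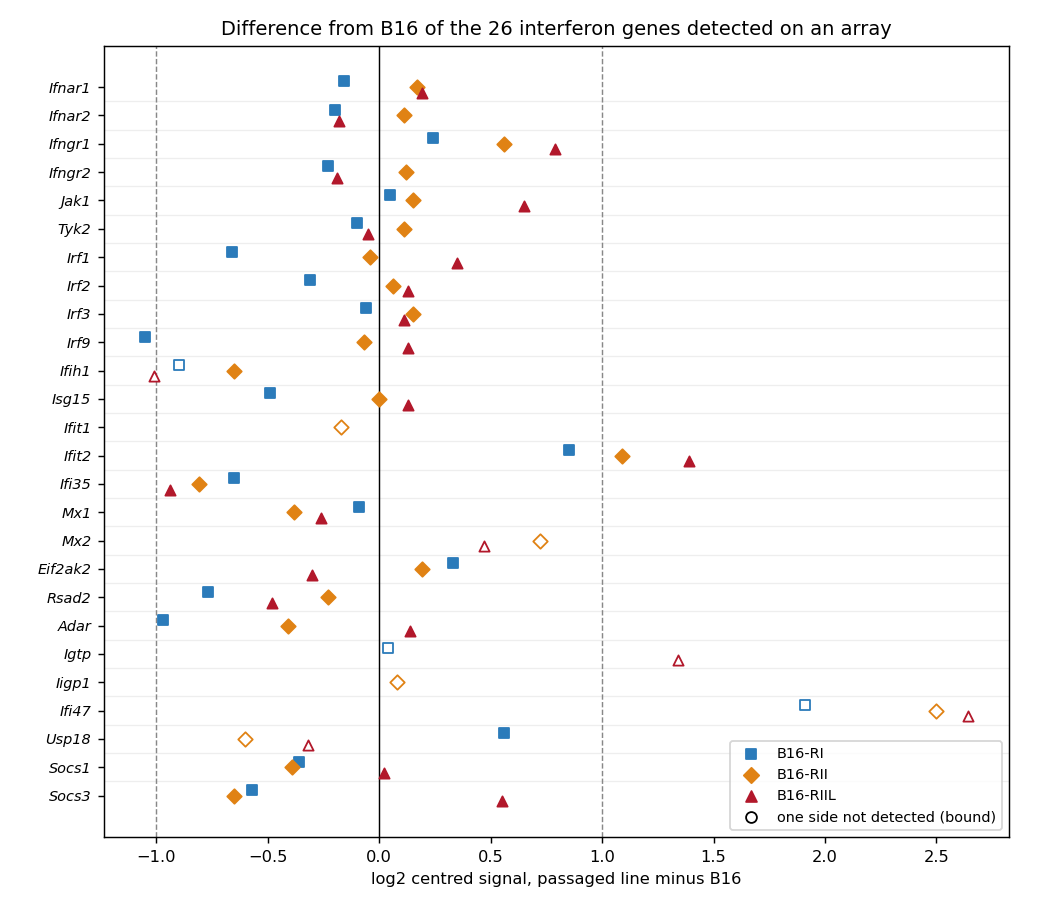
Difference from B16 in log2 centred signal (x axis) for the 26 members detected on at least 1 array. Each passaged line has 1 symbol, and dashed lines mark 2-fold. Open symbols, called a bound in the key, mark nominal values where one side was not detected. Ifi47, Ifit2 and Igtp pass the upper line and Irf9 and Ifih1 the lower one.

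The receptor chains were detected on every array and were close to B16 in every line, with differences from -0.23 to 0.79 on the log2 scale. The Ifnar1 signal was 47.3 in B16, 42.5 in B16-RI, 53.3 in B16-RII and 54.1 in B16-RIIL. The Ifnar2 signal was 10.9, 9.52, 11.8 and 9.65 on the same arrays. The highest and the lowest line differed by 1.27-fold for Ifnar1 and 1.24-fold for Ifnar2. The ligand-binding chain of the gamma receptor, Ifngr1, had a signal of 8.42, 9.95, 12.4 and 14.6, and its partner Ifngr2 had 13.3, 11.3, 14.4 and 11.6. Ifngr1 was higher at each step from B16 to B16-RIIL and reached 1.73-fold B16, below the 2-fold limit. Steps here and below follow the listed order of lines, in which B16-RII and B16-RIIL both came from B16-RI. In the deposited values without centring, Ifngr1 was highest on B16-RII, and its differences from B16 were 0.31, 0.98 and 0.78.

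Of the receptor kinases, Tyk2 varied least, with a signal of 50.5, 47.0, 54.4 and 48.7 in the order B16, B16-RI, B16-RII and B16-RIIL. Jak1, which serves both receptor types, had 3.71, 3.84, 4.12 and 5.81. It was 1.57-fold B16 in B16-RIIL and was the second member after Ifngr1 that was higher at each step, as 8.6% of all genes detected on every array were. In the deposited values its difference in B16-RIIL was 1.11, past the 2-fold limit. Jak2 and Stat2 were not detected on any array.

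The interferon regulatory factors split into detected and silent members. Irf3, which is activated by viral nucleic acid and starts interferon production, had a steady signal of 33.7, 32.3, 37.5 and 36.3. Irf7, which amplifies type I interferon, and Irf8, a factor of myeloid cells, were not detected on any array. Irf9, the DNA-binding subunit of the complex that reads the ISRE, had a signal of 6.66 in B16, 3.21 in B16-RI, 6.34 in B16-RII and 7.29 in B16-RIIL. The B16-RI array stood alone, 2.07-fold below B16, and the other passaged lines were 1.05- and 1.09-fold from B16. Among the 808 genes called below B16 in B16-RI the difference of Irf9, -1.05, ranked 767, close to the limit. It was -0.66 in the deposited values, -0.8 after quantile normalization and -0.92 after quantile normalization within each probe set, so the call was lost under each of these scalings.

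Irf1, an activator of interferon gamma targets, followed the same order as Irf9 with a smaller gap. Its signal was 6.65 in B16, 4.22 in B16-RI, 6.48 in B16-RII and 8.48 in B16-RIIL, so B16-RI was 1.57-fold lower than B16. Irf2, which opposes Irf1 at many promoters, had 7.71, 6.21, 8.06 and 8.42. In each of Irf1, Irf2 and Irf9 the lowest signal was on B16-RI, in the deposited values too, and the highest was on B16-RIIL, which in the deposited values held for Irf9 and not for Irf1 or Irf2.

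The cytosolic RNA sensors were near the detection limit. Ifih1 (MDA5), which binds long double-stranded RNA, had a signal of 2.01 on B16 and 1.28 on B16-RII, and was not detected on B16-RI (1.08) or B16-RIIL (0.995). It was nominally 2.02-fold lower in B16-RIIL than in B16. The difference, -1.01, was -0.55 in the deposited values, -0.55 after quantile normalization and -0.66 after quantile normalization within each probe set. The S/N of Ifih1 on B16 was 3.58, and with an S/N limit of 5 it was not tested. Ddx58 (RIG-I), the sensor of RNA ends, was not detected on any array on either of its probes.

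Among the antiviral effectors, Ifit2 was higher and Ifi35 lower than B16 in every passaged line. Ifit2 had a signal of 4.0 in B16, 7.2 in B16-RI, 8.54 in B16-RII and 10.5 in B16-RIIL. The differences from B16 were 0.85, 1.09 and 1.39 log2 units, which passed the limit in B16-RII (2.14-fold) and B16-RIIL (2.62-fold). Every passaged array was higher than B16, also in the deposited values and after both quantile normalizations. The last step turned around in the deposited values, where the differences were 0.92, 1.51 and 1.38. Ifi35, a partner of Nmi in the interferon response, went the other way, with 4.55, 2.91, 2.59 and 2.37. It was lower at each step, as 5.42% of all genes detected on every array were, and 1.92-fold lower than B16 in B16-RIIL. In the deposited values its difference was -0.58, -0.39 and -0.95, with B16-RII nearest to B16, and after quantile normalization it passed the limit in B16-RIIL at -1.11.

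Ifit1, which lies on chromosome 19 like Ifit2, was detected on B16-RII alone, with a signal of 1.23 and an S/N of 3.14, so it could not be compared with B16 in B16-RI or B16-RIIL. Isg15 had 4.94, 3.52, 4.95 and 5.42 in the order B16, B16-RI, B16-RII and B16-RIIL, with its lowest value on B16-RI. Its second probe was not detected on any array. Rsad2 had 5.25, 3.08, 4.47 and 3.76 and was lower than B16 in all passaged lines without reaching 2-fold. In the deposited values, however, it was 0.19 log2 units higher than B16 in B16-RII.

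Adar, which edits adenosine in double-stranded RNA, had a signal of 6.43 in B16, 3.29 in B16-RI, 4.85 in B16-RII and 7.08 in B16-RIIL. The B16-RI value was 1.96-fold lower than B16, just short of the limit, and passed it after quantile normalization at -1.03. Eif2ak2 (PKR), which halts translation when it binds double-stranded RNA, had 14.6, 18.4, 16.8 and 11.9, with B16-RIIL lowest. Mx1, a GTPase that traps viral nucleocapsids, had 2.61, 2.45, 2.01 and 2.17 on one probe and was not detected on the other. Its relative Mx2 was detected on B16-RII at 0.942 and on B16-RIIL at 0.792, with S/N of 3 and 3.9, and was not detected on B16 or B16-RI. Its B16-RII signal was nominally 1.65-fold B16, short of the limit. It passed the limit at 1.13 log2 units in the deposited values, 1.26 after quantile normalization and 1.16 after quantile normalization within each probe set. Oasl2, of the oligoadenylate synthetase family, was not detected on any array.

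Of the immunity-related and guanylate-binding GTPases, the 5 members (Ifi47, Igtp, Iigp1, Gbp2 and Gbp3) were undetected on B16, and Ifi47 was detected well above the limit on all 3 passaged arrays. Ifi47 had a signal of 0.81 in B16, where it was not detected, 3.04 in B16-RI, 4.57 in B16-RII and 5.04 in B16-RIIL. Its S/N was 1.61 on B16 and 7.77, 12.27 and 12.49 on the passaged arrays. All 3 passaged lines were above B16, by a nominal 3.75-fold in B16-RI, 5.65-fold in B16-RII and 6.22-fold in B16-RIIL. Ifi47 was the only member above B16 in all 3 passaged lines, a pattern shown by 1.28% of all genes detected on at least 1 array. Among genes called above B16 it ranked 202 of 540 in B16-RI, 61 of 557 in B16-RII and 67 of 677 in B16-RIIL. The call held in the deposited values, after both quantile normalizations and with an S/N limit of 5.

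Igtp, which lies on chromosome 11 like Ifi47, was near the detection limit. Its signal was 0.63 on B16 and 0.942 on B16-RII, both not detected, 0.648 on B16-RI and 1.6 on B16-RIIL. In B16-RIIL it exceeded B16 by a nominal 2.54-fold, with an S/N of 3.31, and this call was lost with an S/N limit of 5. Iigp1 was detected on B16-RII alone, with a signal of 0.942 and an S/N of 3.26. Gbp2 and Gbp3, guanylate-binding proteins that coat microbial vacuoles, were not detected on any array. The GTPases share sequence within their families, and the files do not give probe sequences, so signal from a relative cannot be told apart from signal of the named gene.

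No feedback inhibitor was called above or below B16 in any line. Socs3, which blocks Jak kinases at cytokine receptors, had a signal of 14.7 in B16, 9.92 in B16-RI, 9.42 in B16-RII and 21.5 in B16-RIIL. Both lymph node lines were lower than B16 and the lung line was higher, at 1.46-fold B16 (1.01 log2 units in the deposited values). Socs1, which acts on the gamma receptor, had 2.23, 1.73, 1.70 and 2.27. Usp18, which removes Isg15 from proteins and silences the type I receptor, was detected on B16 at 1.13 and on B16-RI at 1.67. It was not detected on B16-RII or B16-RIIL, where it was nominally 1.51-fold and 1.25-fold lower than B16.

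Members detected on every array were lower than B16 more often in B16-RI than in the later lines. In B16-RI 15 of the 19 were lower by any amount, with a median difference of -0.23 log2 units, against 48.9% of all genes and a median of 0.01. In B16-RII 8 of the 19 were lower (all genes 45.7%) and the median was 0.06. In B16-RIIL 7 of the 19 were lower (all genes 46.2%) and the median was 0.13. Lower in B16-RI were 3 of 4 receptor chains, 5 of 6 kinases and factors, 5 of 7 antiviral effectors and 2 of 2 feedback inhibitors. In the deposited values the median gene was 0.22 higher than B16 in B16-RI. There 11 of the 19 were lower, against 27.9% of all genes, and the median of the members was -0.04. After quantile normalization 14 of the 19 were lower, against 50.1% of all genes. The comparisons share the B16 array, so a low or high B16 value moves all 3 together. The spread over lines was a median range of 0.63 log2 units per member, against 0.47 for all genes. For scale, 2 probes of the same gene differed in their B16-RI minus B16 value by a median of 0.21 log2 units and by 0.71 at the 90th percentile, over 537 genes. The corresponding gaps were 0.27 and 0.78 in B16-RII and 0.3 and 0.82 in B16-RIIL, which describes probes on the same arrays and not replicate error.

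**Figure D4:**
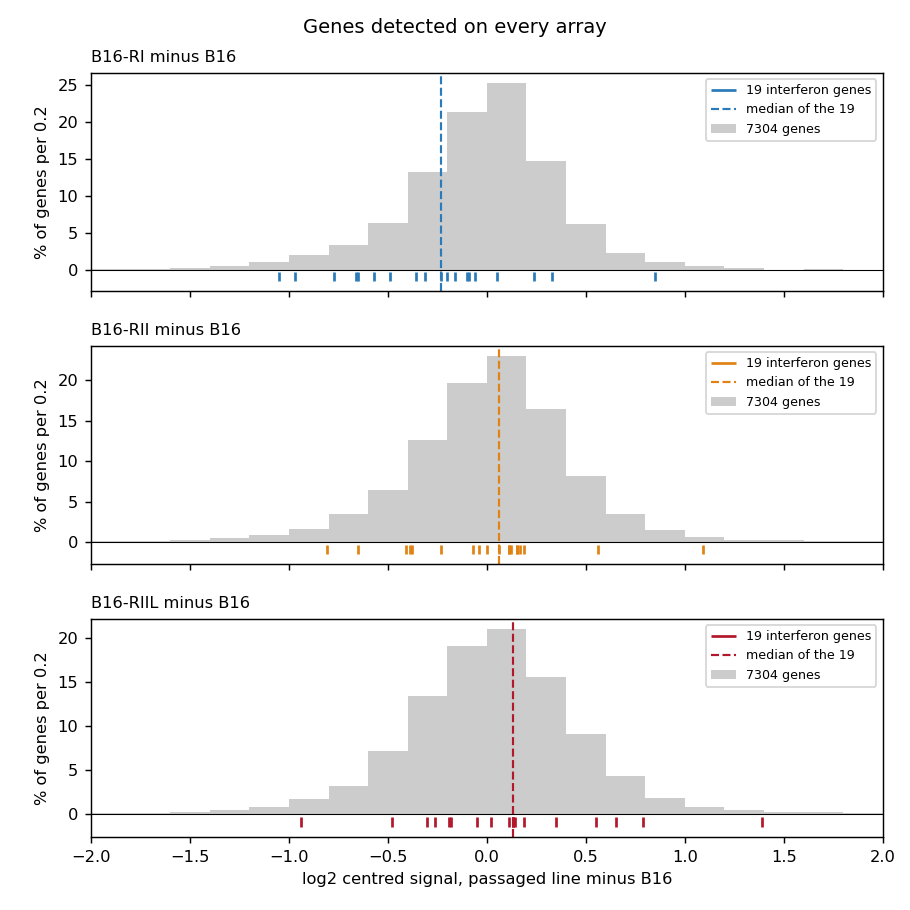
Share of the 7304 genes detected on every array (grey bars, percent of genes per 0.2 log2 units; the axis ends at 2 log2 units on either side) by their difference from B16 in log2 centred signal (x axis), 1 panel per passaged line. Ticks below the bars are the 19 interferon genes and the dashed line is their median, which was -0.23 in B16-RI, 0.06 in B16-RII and 0.13 in B16-RIIL.

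Among the passaged lines themselves, 5 members were higher in the lung line B16-RIIL than in the first lymph node line B16-RI, and none was lower. These were Irf9 (2.27-fold), Socs3 (2.17-fold), Adar (2.15-fold), Irf1 (2.01-fold) and Igtp (2.47-fold), of 23 members tested, against 8.59% of all genes above and 5.56% below. Irf9, Igtp and Socs3 kept this call in the deposited values and after both quantile normalizations, and with an S/N limit of 5 Igtp lost it. Adar lost it after quantile normalization, and Irf1 lost it under all 3 of these scalings. Between B16-RIIL and B16-RII, 1 of 25 members differed, against 6.72% of all genes above and 4.77% below. This was Socs3, at 2.28-fold, and it was called under every alternative scaling. Between B16-RII and B16-RI, Mx2 (nominally 2.24-fold) and Iigp1 (nominally 2.17-fold) were above and Usp18 (nominally 2.23-fold) was below. This was out of 26 members, against 5.63% and 5.29% of all genes. Each of these 3 was detected on only 1 of both arrays, and with an S/N limit of 5 none was called. The Usp18 call was also lost in the deposited values and after both quantile normalizations, while those of Mx2 and Iigp1 were kept.

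A further 96 interferon genes outside the member list, of which 76 had a probe, were described by the same rule. On every array 31 were detected, and on none 24. In B16-RI 3 were above B16 and 7 below, of 43, which is 6.98% and 16.3% against 5.9% and 8.82% of all genes. In B16-RII 5 were above and 2 below, of 48, which is 10.4% and 4.17% against 5.95% and 8.13%. In B16-RIIL 2 were above and 1 below, of 43, which is 4.65% and 2.33% against 7.2% and 7.1%. In at least 1 line 18 of 52 were called, against the 24.5% of all genes given above. Of the 31 detected on every array, 22 were lower than B16 in B16-RI, with a median of -0.29, 21 in B16-RII (median -0.15) and 16 in B16-RIIL (median -0.02). Without centring the median of all genes was higher than B16 in each line. There 18, 7 and 11 of the 31 were lower, against 27.9%, 12.8% and 28.8% of all genes. Their medians were -0.22, 0.27 and 0.18, beside 0.22, 0.45 and 0.26 for all genes.

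Of the 7 genes below B16 in B16-RI, 4 effectors were still detected there, and each was nearer to B16 in the later lines. Ifitm3, a membrane protein that blocks virus entry, had a signal of 51.6 in B16, 10.6 in B16-RI, 16.8 in B16-RII and 30.2 in B16-RIIL. It was 4.89-fold below B16 in B16-RI and 3.07-fold in B16-RII. Its relatives were nearer to B16, with Ifitm2 at 150, 136, 151 and 171 and Ifitm1 at 29.4, 21.5, 20.3 and 22.4. Ifi27, an interferon-induced mitochondrial protein, had 54.8, 19.4, 27.9 and 38.8, and was 2.82-fold below B16 in B16-RI. Tor3a, an interferon-induced ATPase of the torsin family, had 20.5, 7.26, 16.3 and 16.9. Lgals3bp, a secreted glycoprotein that binds galectins, had 27.4, 10.7, 17.4 and 17.7. In all 4 the B16-RI array was the lowest of the 4 arrays. They were picked by a low value on that array, which favours this order and the smaller differences in the later lines.

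The other 3 genes below B16 in B16-RI were not detected there. Pml, the scaffold of nuclear bodies, had 4.45 on B16, 3.03 on B16-RII and 4.02 on B16-RIIL, and was nominally 4.99-fold lower in B16-RI. Oas2, an oligoadenylate synthetase, had 2.56 on B16, 1.69 on B16-RII and 1.56 on B16-RIIL, and was nominally 2.52-fold lower in B16-RI. Pias3, an inhibitor of Stat proteins, was nominally 2.01-fold lower. In the deposited values the calls of Lgals3bp (-0.96), Oas2 (-0.94) and Pias3 in B16-RI were lost, and those of Ifitm3, Ifi27, Tor3a and Pml were kept. With an S/N limit of 5 the calls of Pml and Pias3 were lost.

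The genes above B16 in this wider list were mostly detected on a single array. In B16-RI they were Ifnk (2.29, nominally 4.02-fold), Tlr7 (1.52, nominally 2.97-fold) and Gbp4 (1.29, nominally 2.93-fold), none of which was detected on another array. In B16-RII they were Ifna4 (1.26), Tlr3 (3.17), Oasl1 (1.21), Trim21 (1.75) and Epsti1 (2.05), above B16 by a nominal 2.01-fold to 3.82-fold. Of these 5, Epsti1 was also detected on B16-RIIL, at 1.33. In B16-RIIL they were Isg20 (1.84, nominally 2.07-fold), an RNA exonuclease, and Sp100 (2.13, 2.81-fold), a nuclear body protein. Ube2l6, the conjugating enzyme of Isg15, was the single gene below B16 there, nominally 3.38-fold. With an S/N limit of 5 none of the 3 calls above B16 in B16-RI remained, while Tlr3 (S/N 7.73), Trim21 (8.35) and Epsti1 (6.47) kept theirs in B16-RII and Isg20 (8.6) kept its call in B16-RIIL. The calls of Ifna4, Oasl1, Sp100 and Ube2l6 were lost at that limit.

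The interferon ligands gave no common signal. Ifnb1 and Ifng were not detected on any array, and neither were 5 of the other 11 ligand genes with a probe. Ifna14 was detected on every array with a signal of 5.29, 5.80, 5.07 and 5.22, and Ifnl3 with 3.16, 3.52, 2.50 and 3.30. Ifna1 was detected on 3 arrays, at 1.57 in B16, 1.66 in B16-RII and 2.11 in B16-RIIL. The alpha interferon genes are near-identical copies, so the named copy is uncertain.

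The lines were checked against markers of melanocytes and of cells that a metastasis could carry into culture. All 5 melanocyte markers with a probe (Tyr, Tyrp1, Dct, Mitf and Slc45a2) were detected on every array and none was called in a line. Of the macrophage markers, 6 of 7 were undetected on every array, and Csf1r was detected on B16 alone. Csf1r was called below B16 by a nominal 2.15-fold in B16-RI and 2.18-fold in B16-RII. The summed signal of the macrophage markers was 4.67, 4.40, 4.01 and 4.38 in the order B16, B16-RI, B16-RII and B16-RIIL. Of the endothelial markers 5 of 6 were undetected on every array, with a summed signal of 3.38 to 4.57. The other, Pecam1, was detected on B16-RII and B16-RIIL, and was above B16 in B16-RII by a nominal 3.54-fold. Of the lymphocyte markers 5 of 8 were undetected, including Ptprc and Cd3e, with a summed signal of 61.2 to 66.9 that came mainly from Cd79a, at 56.0 to 62.9. Of the fibroblast markers 3 of 6 were undetected, and the summed signal was 12.2, 15.1, 8.91 and 16.9. The collagen genes did not move together. Col1a1 was below B16 by a nominal 3.37-fold in B16-RI and by 2.09-fold in B16-RII. In contrast, Col1a2, which carried most of the sum, had 6.32, 11.4, 5.57 and 12.1 and was not called against B16. Each sum adds signals of different genes, undetected ones included, so it does not measure the content of a cell type. The part of other cells in the interferon gene differences was not tested, and in bulk RNA fewer cells of a type and less RNA per cell cannot be told apart.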

How the data were processed

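Cultured lines were profiled in duplicate, per the paper, on Applied Biosystems Mouse Genome Survey Microarrays; the 1 array per line that matches a sample label was analysed. The authors deposited a raw intensity and a normalized intensity for 33012 probes, and the analyzer's S/N and flag as scores. The normalized intensity is the raw value divided by 1 of 2 constants per array, for probe sets of 16524 and 16488 probes; it is not quantile normalized, the method the paper names. From the deposited intensity, each probe set was centred on its median difference from B16 over probes detected on every array. The centring removed 0.39, 0.41 and 0.46 log2 units (first set) and 0.07, 0.42 and -0.01 (second set) in B16-RI, B16-RII and B16-RIIL. An undetected signal was set to the higher of itself and the lowest detected signal of its array. Detected probes numbered 13872 to 14855 per array. Of 17302 probes with a symbol, 391 carry several and 16153 matched the RefSeq gene table of GRCm38.p6. Second arrays, in 20 columns that match no sample label, were not used here, nor were columns of the authors' own log2 values and ratios.

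Genes outside the member list were named when called in at least 1 passaged line by the 2-fold rule; the Ifitm relatives and the ligands with values were added after their values were seen. The members and lists were chosen with earlier results of these data known. Alternatives were the deposited values, 2 quantile normalizations, no detection filter, an S/N limit of 5, a limit of 1.5-fold and the mean over a gene's probes. The counting rule was tested on simulated data. Python 3.11.15, numpy 2.4.6, pandas 2.3.3 and matplotlib 3.10.9 were used.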

Additional observations from a re-analysis of the deposited data

Results flagged for a closer look

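Sp100, an interferon-inducible protein of nuclear bodies, was called on opposite sides of B16 in the 2 lines of the second round. Its difference from B16 was -1.05 log2 units in B16-RII, where it was not detected and nominally 2.08-fold lower, and 1.49 in B16-RIIL (2.81-fold higher). The centred signal was 0.76 in B16, 0.829 in B16-RI, 0.366 in B16-RII and 2.13 in B16-RIIL. The difference between the lines was not tested, because 1 array per line was analysed. In B16-RII the difference was -0.63 in the deposited values, -0.75 after quantile normalization and -0.61 after quantile normalization within each probe set, so it kept its sign and its call was lost; in B16-RIIL it was 1.48, 1.48 and 1.6. With an S/N limit of 5 both calls were lost.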

How the results depend on the processing

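No paired analysis was possible because only the 1 array per line that matches a sample label was analysed, and for the same reason no replicate was left out. Of 81 values recomputed for the member list, 47 were equal or, for counts, within 1.5 times, 34 moved, and no called gene changed direction. Of the 8 member calls against B16, 6 were kept in the deposited values, after quantile normalization and after quantile normalization within each probe set, and each of these lost Irf9 in B16-RI and Ifih1 in B16-RIIL. With an S/N limit of 5, 6 were kept, and Ifih1 and Igtp in B16-RIIL were lost. All 8 were kept without a detection filter, at 1.5-fold and with the mean over probes.

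In the deposited values 0 members were below B16 in B16-RI and in B16-RIIL, beside 6.89% and 5.93% of all genes, and 5 were above in B16-RIIL, Jak1 and Socs3 being new, beside 11.6%. Mx2 in B16-RII was called above B16 in the deposited values and after both quantile normalizations. The medians in this section are over the members tested in each comparison, and not over those detected on every array. By the main rule they were -0.2, 0.06 and 0.13 in B16-RI, B16-RII and B16-RIIL. In the deposited values they were -0.02, 0.48 and 0.41, beside 0.2, 0.44 and 0.26 for all genes. After quantile normalization the medians were -0.1, 0.02 and 0.22. Within each probe set they were -0.14, 0.07 and 0.14, and 0 members were below B16 in B16-RI and in B16-RIIL, beside 8.09% and 6.32% of all genes. Without a detection filter the medians were -0.29, -0.02 and 0.12, and 3, 1 and 2 members were below B16 in B16-RI, B16-RII and B16-RIIL, beside 9.81%, 13.5% and 12.0% of all genes. The members called were then 5 between B16-RII and B16-RI and 2 between B16-RIIL and B16-RII. For pairs of passaged lines, shares of all genes were computed by the main rule alone, so counts under the alternatives have none beside them. With an S/N limit of 5 the medians in B16-RI and B16-RII were -0.22 and 0.09, 0 members were below B16 in B16-RIIL, beside 3.97% of all genes, and 0 differed between B16-RII and B16-RI. At 1.5-fold 2 and 5 members were above B16 in B16-RI and B16-RIIL, beside 10.2% and 14.5% of all genes, and 6, 4 and 2 were below it in B16-RI, B16-RII and B16-RIIL, beside 15.5%, 14.1% and 13%. The counts among passaged lines were then 6 (B16-RII and B16-RI), 11 (B16-RIIL and B16-RI) and 3 (B16-RIIL and B16-RII). These counts again have no share of all genes beside them, so they are not read against the array as a whole. The share of all genes called above B16 in B16-RII was 5.95% with centring and 12.2% in the deposited values, against 8.13% and 5.38% below. The deposited and the quantile values differ from the main ones by their scaling alone.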
